A study of Mus musculus with 2 samples.

Results

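The fragile X mental retardation protein FMRP, its paralogs FXR1 and FXR2, and the proteins that meet it in RNA granules were examined as mRNAs in Neuro2a cells, a mouse neuroblastoma line. The group was fixed by name as 10 genes: *Fmr1*, *Fxr1*, *Fxr2*, *Cyfip1*, *Cyfip2*, *Nufip1*, *Caprin1*, *Caprin2*, *G3bp1* and *G3bp2*. Every probe set whose annotation gave only 1 of these symbols was taken, which gave 24 of the 45037 probe sets that are no array controls, for 9 of the 10 genes. *Cyfip1* matched no such probe set and is not analysed here. RNA came from siCPEB1-transfected cells, which received a Stealth siRNA against the *Cpeb1* coding region for 24 h, and from siControl-transfected cells, which received a control siRNA for 24 h. Each condition was measured on 1 Affymetrix Mouse Genome 430 2.0 array from 100 ng of total RNA, so the ratios describe these 2 arrays and carry no p-value. Neuro2a is an established tumour line, the knockdown was transient, and the sources used here do not say how many cultures stood behind each RNA.

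FMRP is an RNA-binding protein that holds many neuronal mRNAs in a silent state while they travel along dendrites, and its loss causes fragile X syndrome. CYFIP1 and CYFIP2 bind FMRP and are also subunits of the WAVE complex, which drives actin branching. NUFIP1 is a nuclear RNA-binding partner of FMRP and an assembly factor of small nucleolar ribonucleoproteins. CAPRIN1 and the G3BP proteins bind each other and form the core of stress granules, whereas CAPRIN2 is a relative of CAPRIN1 found in neurons. CPEB1 binds the cytoplasmic polyadenylation element (CPE), a short U-rich stretch near the end of an mRNA, and the array comparison asked how the transcriptome differed once CPEB1 was depleted.

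The sites through which the study tested CPEB1 on *Fmr1* can be read from its mutagenic oligonucleotides, which are shown because they mark where the CPEs of the *Fmr1* 3′ UTR lie. Capitals mark the 2 bases that the study set apart in each forward oligonucleotide.
FMR1 CPE mut 1: caggattttacttttGCttt
FMR1 CPE mut 2: gtgccttttttGCatcttgg
FMR1 CPE mut 3: gattggattttGCgttgaca
FMR1 CPE mut 4: gatgtaaatttttGCtaaaaagttg
In these 4 oligonucleotides the marked bases followed a run of 4, 6, 4 and 5 T. In HeLa cells, the study reported reduced localization to CPEB1-positive granules with CPE-mut4 and with CPE-mut5, a further mutated construct. With CPE-mut1, CPE-mut2 and CPE-mut3, it reported localization about equal to that of the unmutated 3′ UTR. The *Fmr1* and *Caprin2* mRNAs were also the members that the study measured by quantitative PCR, with *Hprt* as the internal control. By that assay, the study reported both mRNAs as higher in siCPEB1-transfected than in siControl-transfected cells. It had picked *Caprin2* for the assay from its own microarray results, so the choice of this gene was not independent of the arrays.
Fmr1 forward: gacaaatgtgtgccaaagaa
Fmr1 reverse: aggtgacttcattgatggac
Caprin2 forward: gtgcaattccatcatcacag
Caprin2 reverse: cctgtgatggttcttgaaga

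The 300 bases around the transcription start, 250 before and 50 after, are given for *Fmr1*, on which the study turned, and for *Cyfip2*, *Caprin2* and *G3bp2*, which had counted probe sets (2 of 2, 1 of 1 and 2 of 3) outside the spread of probe sets of like signal. They were taken from RefSeq on GRCm38.p6, and the promoters of the 9 genes with probe sets all matched by symbol. The *Fmr1* window is chrX:68678291-68678590 on the plus strand, the *Cyfip2* window chr11:46312309-46312608 on the minus strand, the *Caprin2* window chr6:148896188-148896487 on the minus strand, and the *G3bp2* window chr5:92137676-92137975 on the minus strand. The start used for *Cyfip2* lies inside the span of the gene and not at its outer end. Capitals mark matches on either strand to the GC box GGGCGG, the NRF1 core CGCATGCG, the E box CACGTG and the ETS site CCGGAA.
Fmr1: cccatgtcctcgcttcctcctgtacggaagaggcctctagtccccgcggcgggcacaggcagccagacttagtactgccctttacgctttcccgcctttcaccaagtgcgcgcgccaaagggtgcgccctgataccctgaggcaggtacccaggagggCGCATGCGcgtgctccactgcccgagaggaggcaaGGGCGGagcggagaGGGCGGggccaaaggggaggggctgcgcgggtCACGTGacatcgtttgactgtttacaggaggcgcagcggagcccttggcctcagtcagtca
Cyfip2: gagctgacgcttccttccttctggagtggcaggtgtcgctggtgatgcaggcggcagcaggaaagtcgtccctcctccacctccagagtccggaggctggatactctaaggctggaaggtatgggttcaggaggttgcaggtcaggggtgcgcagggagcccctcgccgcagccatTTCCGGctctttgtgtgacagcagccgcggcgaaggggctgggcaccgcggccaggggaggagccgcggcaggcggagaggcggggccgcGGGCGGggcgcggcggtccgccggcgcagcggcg
Caprin2: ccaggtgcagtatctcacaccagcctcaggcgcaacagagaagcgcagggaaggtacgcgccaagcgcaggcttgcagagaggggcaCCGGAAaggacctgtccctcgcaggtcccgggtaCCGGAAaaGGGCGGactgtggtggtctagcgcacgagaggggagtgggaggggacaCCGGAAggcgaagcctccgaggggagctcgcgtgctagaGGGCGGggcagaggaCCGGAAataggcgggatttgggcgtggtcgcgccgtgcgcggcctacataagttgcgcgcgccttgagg
G3bp2: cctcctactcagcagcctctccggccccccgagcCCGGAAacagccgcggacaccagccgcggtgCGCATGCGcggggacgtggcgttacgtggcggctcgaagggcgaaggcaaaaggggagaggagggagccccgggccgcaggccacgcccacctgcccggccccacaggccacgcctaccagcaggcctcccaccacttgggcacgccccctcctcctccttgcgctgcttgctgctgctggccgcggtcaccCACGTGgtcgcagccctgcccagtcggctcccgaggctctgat
*Fmr1* and *G3bp2* each held 1 NRF1 core and 1 E box, letters found in 1.91% and 7.24% of 27025 promoters of the same length. *Caprin2* held 4 ETS sites and *Cyfip2* and *G3bp2* 1 each, against 15.2% of all promoters with any, and *Fmr1*, *Caprin2* and *Cyfip2* held 2, 2 and 1 GC boxes, against 35.9% with any. GC content was 65.7% in *Fmr1*, 70.7% in *Cyfip2*, 66.7% in *Caprin2* and 73.0% in *G3bp2* (median of all promoters 52.7%). High GC content and GC boxes are not particular to the printed genes. In the members not printed, *Caprin1*, *Fxr1*, *Fxr2*, *G3bp1* and *Nufip1*, GC content was 78.7%, 76.3%, 71.3%, 64.0% and 57.0%, with 6, 7, 2, 1 and 0 GC boxes. These members held no NRF1 core and no E box, and among them only *Nufip1* held an ETS site (1). A match describes the letters only, and no value here measures binding or promoter activity.

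The values are MAS5 signals, which the authors computed per probe set on a linear scale. A probe set was counted if its signal reached the array median (21.6 in siCPEB1, 21.0 in siControl) on at least 1 array and the 25th percentile on the other, and it was called higher or lower when the ratio passed 2-fold. *Cpeb1*, the targeted gene, had a signal of 38.5 in siCPEB1-transfected cells and 302 in siControl-transfected cells, 7.86-fold lower. Of 10 markers of sympathetic neuroblastoma on the array, 7 reached the array median in both conditions, whereas *Th*, *Nefl* and *Nefm* did not. Of 14 markers of fibroblasts, glia, blood and endothelium, 4 reached it in siCPEB1 and 3 in siControl, none was above 58.9 in siCPEB1 or above 97.1 in siControl, and the summed signal of each of these 4 lists was 42.3 to 91.6 in siCPEB1 and 27.9 to 116 in siControl. The neuroblastoma list summed to 13781 in siCPEB1 and 12809 in siControl, and the part of other cells in the ratios was not tested. In bulk RNA, fewer cells of a type and less RNA per cell cannot be told apart. The spread within the arrays came from 5531 genes with several counted probe sets, whose log2 ratios differed with a pooled SD of 0.37, and from 18 hybridization control probe sets, whose log2 ratios averaged -0.13 (SD 0.075 across probe sets). Neither value holds the variation of separate cultures.

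Of the 24 member probe sets, 23 passed the signal filter. None passed 2-fold upward and 2 passed it downward, both of *Cyfip2*, against 4.49% and 4.04% of the 23655 probe sets that passed on the whole array. The log2 ratio was above 0 at 18 of the 23 (78.3%), against 52.0% on the array, and the median was 0.26, against 0.024. The count above 0 moves with any scaling that shifts all probe sets alike (15 with each array scaled to its median), whereas 17 of the 23 lay above the array's own median ratio under both. Probe sets of 1 gene read the same mRNA, so these counts are not counts of independent genes. With 1 probe set per gene, 8 of the 9 genes lay above 0, against 6213 of all 11554 genes. The median log2 ratio was 0.21 (0.045 over all genes, of which 8.41% were past 2-fold in either direction). This count moves with scaling too: with each array scaled to its median, *G3bp1* (-0.015) and *Nufip1* (-0.0082) fell below 0.

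**Figure D1:**
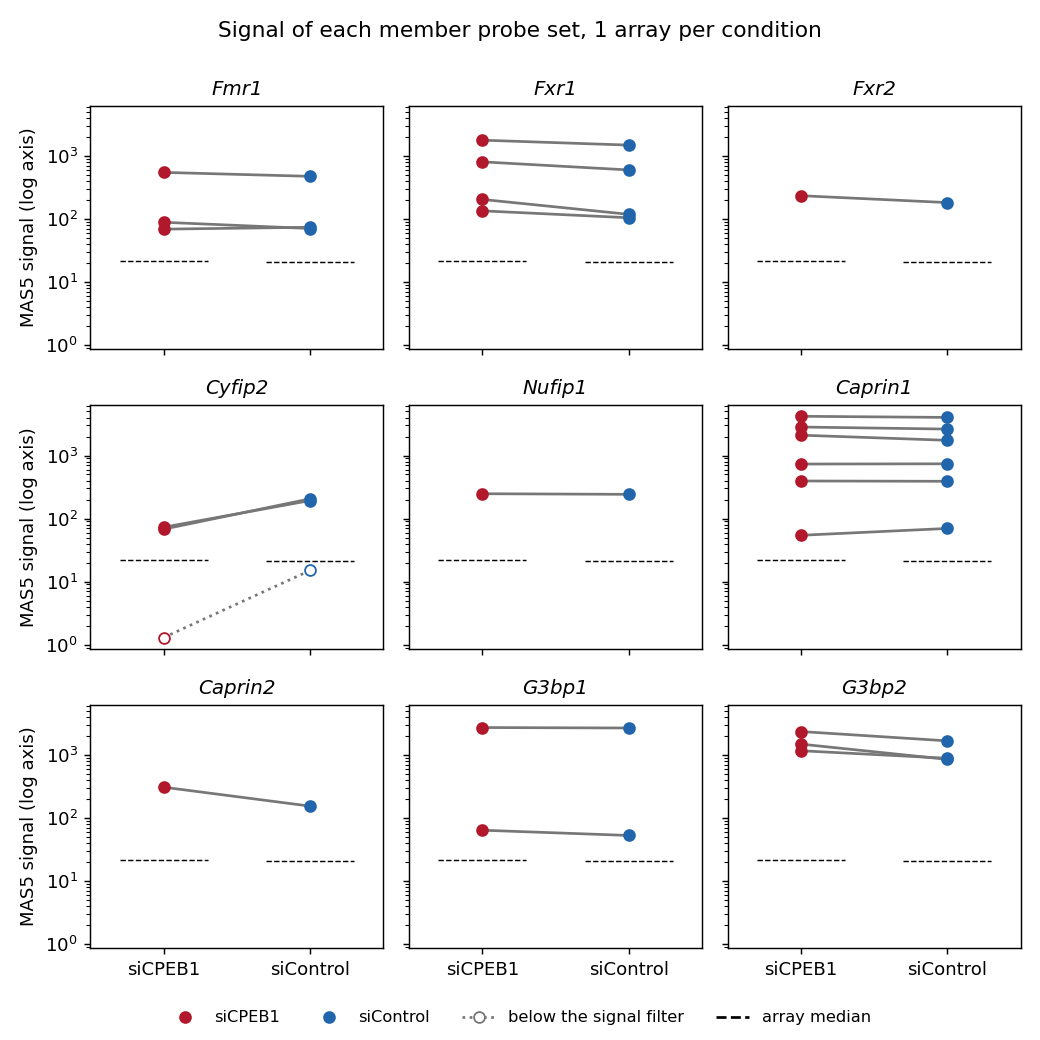
MAS5 signal on a log axis for each probe set of the 9 genes in siCPEB1 (red, left) and siControl (blue, right), 1 array each, with a line joining the same probe set and dashes at the array medians of 21.6 and 21.0. The *Cyfip2* lines climb toward siControl, the *Caprin2* and *G3bp2* lines climb toward siCPEB1, and the open circles mark the 1 *Cyfip2* probe set that did not pass the filter.

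*Cyfip2*, the FMRP and WAVE complex partner on chr11:46193849-46312859, was the member with the lowest ratios. Its first probe set (1449273_at) had a signal of 67.9 in siCPEB1 and 206 in siControl, which is 3.03-fold lower. The second (1428347_at) had 72.9 in siCPEB1 and 193 in siControl, 2.65-fold lower. All 4 signals stood above their array medians, and both log2 ratios (-1.60 and -1.40) lay below the middle 90% of probe sets of like signal, which ran from -0.83 to 0.89. On the array, 2.10% and 3.25% of counted probe sets had a larger ratio in either direction. The third (1442167_at) had 1.30 in siCPEB1 and 15.0 in siControl, both below the array median, and no fold is given. Both counted probe sets stayed past 2-fold under each of the 6 other treatments of the signals (5 scalings and 16 added to both signals), with log2 ratios from -1.65 to -1.09.

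*Fmr1*, on chrX:68678536-68717963, was read by 3 probe sets that all passed. The first (1423369_at) had 550 in siCPEB1 and 476 in siControl, the second (1452550_a_at) 88.9 in siCPEB1 and 70.8 in siControl, and the third (1426086_a_at) 69.2 in siCPEB1 and 74.0 in siControl. These are ratios of 1.15, 1.26 and 0.935, and the log2 ratios of 0.21, 0.33 and -0.10 lay within the middle 90% of probe sets of like signal (-0.84 to 0.72 for the first, -0.91 to 0.98 for the others). Relative to *Hprt*, whose signal was 1720 in siCPEB1 and 2139 in siControl, the log2 ratios of *Fmr1* were 0.52, 0.64 and 0.22. With that scaling, chosen after the values were seen, the third probe set changed sign, but the median of all counted probe sets also moved to 0.34 and the calls over the array came to 9.92% higher and 1.81% lower.

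*Fxr1* and *Fxr2* encode the paralogs that bind RNA and polyribosomes together with FMRP. *Fxr1*, on chr3:34020058-34069980, had 4 probe sets and a log2 ratio above 0 at all of them under every scaling. The first (1417598_a_at) had 1785 in siCPEB1 and 1490 in siControl. The second (1452247_at) had 808 in siCPEB1 and 601 in siControl. The third (1442059_at) had 205 in siCPEB1 and 119 in siControl, and the fourth (1436400_at) 135 in siCPEB1 and 105 in siControl. The ratios were 1.20, 1.34, 1.72 and 1.29, with a mean log2 ratio of 0.46 and an SD of 0.23 over the 4 probe sets, which is a spread within these arrays. All 4 stayed inside the middle 90% at like signal, the third closest to its upper edge (log2 ratio 0.79, edge 0.82). *Fxr2*, on chr11:69632971-69653297, had 1 probe set with 235 in siCPEB1 and 183 in siControl, a ratio of 1.29 and a log2 ratio of 0.36, also inside its range.

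**Figure D2:**
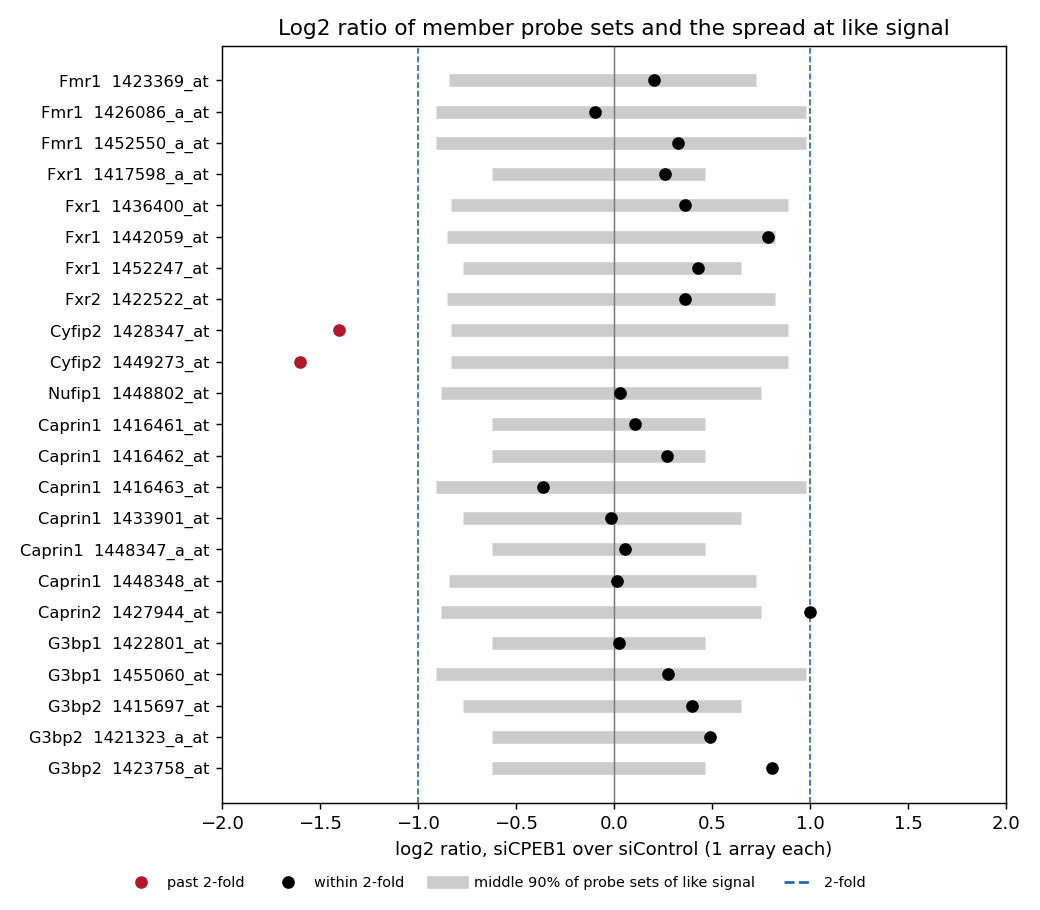
Log2 ratio of siCPEB1 over siControl (x axis) for each of the 23 counted probe sets, with grey bars for the middle 90% of all counted probe sets of like mean signal and dashed lines at 2-fold. The 2 *Cyfip2* points lie left of their bars at -1.60 and -1.40, *Caprin2* lies right of its bar at 0.998, and 2 of the 3 *G3bp2* points lie right of theirs.

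*Caprin2*, on chr6:148842492-148896257, was the member with the highest ratio. Its 1 probe set (1427944_at) had 309 in siCPEB1 and 155 in siControl, and its log2 ratio of 0.998 lay just short of the 2-fold call. It lay above the middle 90% at like signal (-0.88 to 0.75), and 8.59% of counted probe sets had a larger ratio in either direction. Without *Hprt* scaling, under which the log2 ratio was 1.31, the other treatments put it at 0.93 or higher and below 2-fold.

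*Caprin1*, the stress granule protein that binds G3BP, lies on chr2:103762945-103797669 and had 6 probe sets, with log2 ratios from -0.36 to 0.27 and a mean of 0.013 (SD 0.21). At the brightest (1448347_a_at) the signal was 4192 in siCPEB1 and 4024 in siControl, and at the dimmest (1416463_at) 54.3 in siCPEB1 and 69.7 in siControl. The other 4 had 2832, 2104, 733 and 395 in siCPEB1, against 2628, 1744, 739 and 390 in siControl. No *Caprin1* probe set left the middle 90% at like signal, and 2 of the 6 changed sign between scalings. At the probe set that stood for each gene, the log2 ratio was 0.998 for *Caprin2* and 0.059 for *Caprin1*.

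*G3bp2*, an RNA-binding nucleator of stress granules on chr5:92052145-92137725, had 3 probe sets, each with a higher signal in siCPEB1. The first (1421323_a_at) had 2358 in siCPEB1 and 1677 in siControl, the second (1423758_at) 1490 in siCPEB1 and 853 in siControl, and the third (1415697_at) 1169 in siCPEB1 and 888 in siControl. The ratios were 1.41, 1.75 and 1.32, with a mean log2 ratio of 0.56 (SD 0.21). The first (log2 ratio 0.49) and the second (0.80) lay above the middle 90% of bright probe sets (-0.62 to 0.46), the first only just. The third (0.40) lay inside its own range (-0.77 to 0.65). All 3 stayed above 0 under every scaling.

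*G3bp1*, on chr11:55469657-55500888, the paralog with the same role, had a signal of 2729 in siCPEB1 and 2683 in siControl at its bright probe set (1422801_at), a ratio of 1.02. Its dim probe set (1455060_at) had 64.2 in siCPEB1 and 52.9 in siControl, a ratio of 1.21. The sign of the bright probe set changed with each array scaled to its median or its 75th percentile (log2 ratios -0.015 and -0.017). *Nufip1*, on chr14:76110891-76137379, had 248 in siCPEB1 and 242 in siControl, a ratio of 1.02, and its sign changed under the same scalings (log2 ratios -0.0082 and -0.010).

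**Figure D3:**
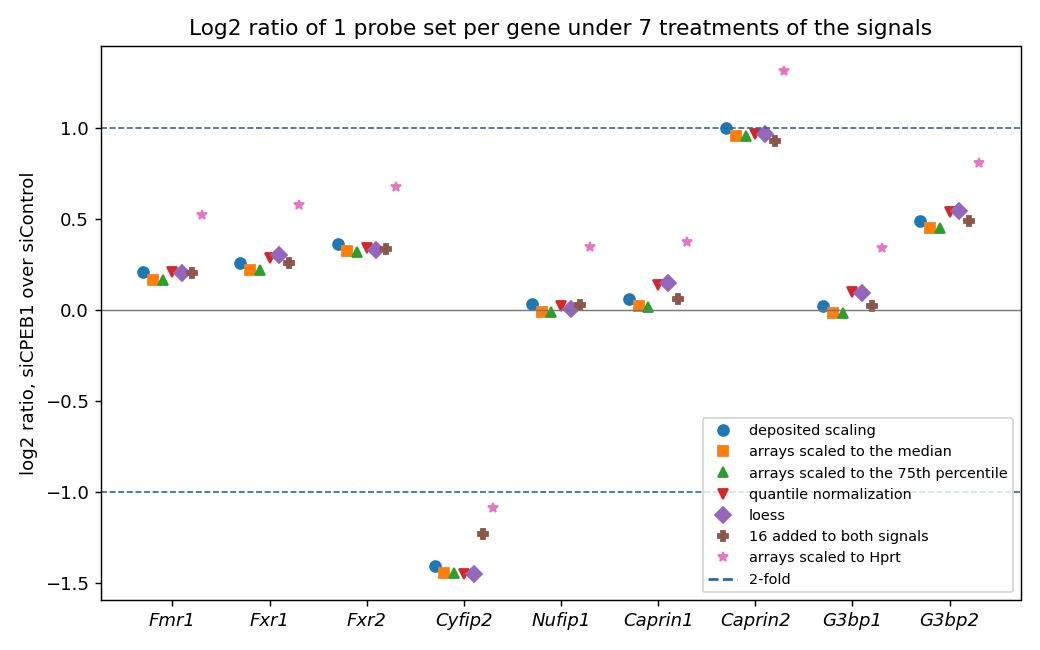
Log2 ratio of siCPEB1 over siControl (y axis) for 1 probe set of each gene under the deposited scaling and 6 other treatments of the signals, with dashed lines at 2-fold. *Cyfip2* lies below the lower line under all 7, *Caprin2* crosses the upper line only with *Hprt* scaling (1.31), and *Nufip1*, *Caprin1* and *G3bp1* lie near 0 except with *Hprt* scaling.

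The complexes in which these proteins work were measured from lists of known partners, of which 60 of 63 genes had a probe set. At 1 probe set per gene, no gene of any list was past 2-fold among the counted genes, except *Stau1* with *Hprt* scaling (log2 ratio 1.12). Single probe sets past 2-fold are named with their values, having been picked out once these were seen. Scaling to *Hprt* adds 0.31 to every log2 ratio given here. Of 9 counted genes of the WAVE complex, the actin machinery that CYFIP proteins belong to, 5 lay above 0 and 4 below, with a median log2 ratio of 0.083. *Wasf1*, which activates actin branching, had 1281 in siCPEB1 and 1127 in siControl, and *Nckap1*, the scaffold that binds CYFIP, had 1584 in siCPEB1 and 1749 in siControl. The small subunit *Brk1* had 2077 in siCPEB1 and 1794 in siControl, and *Rac1*, the GTPase upstream of the complex, had 2410 in siCPEB1 and 2706 in siControl. These log2 ratios ran from -0.17 to 0.21.

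Of 12 counted stress granule genes, 6 lay above 0 and 6 below (median -0.0074, or 0.31 with *Hprt* scaling). *Usp10*, the deubiquitinase that competes with CAPRIN1 for G3BP, had the highest ratio of the list, with 1213 in siCPEB1 and 785 in siControl (log2 ratio 0.63), and was singled out after its values were seen. The brightest were *Pabpc1*, the poly(A)-binding protein, at log2 ratio -0.12, *Ybx1* at -0.21, the helicase *Ddx3x* at -0.054 and *Fam120a* at 0.33. *Ubap2l*, which binds G3BP, had 1 of its 4 counted probe sets past 2-fold (69.8 in siCPEB1 and 33.5 in siControl), while the other 3 had log2 ratios from 0.34 to 0.43. Of the 36 counted probe sets of the list, 1 was higher by more than 2-fold and 0 lower, against 4.49% and 4.04% on the array. That single call says nothing of the list.

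Of 15 genes of RNA transport and silencing partners of FMRP, 5 lay above 0 and 10 below (median -0.22, or 0.092 with *Hprt* scaling). The brightest were the kinesin heavy chains *Kif5c* (log2 ratio 0.48) and *Kif5b* (-0.37), *Nufip2* (-0.11) and *Purb* (-0.28). Among 43 counted probe sets of this list, 1 passed 2-fold upward and 3 passed it downward, against 4.49% and 4.04% of all counted probe sets, and so few calls say nothing of the list. They belong to *Stau1*, a double-stranded RNA-binding protein of transport granules (188 in siCPEB1 and 83.9 in siControl), to *Pura* and to *Tdrd3*. *Pura* had 103 in siCPEB1 and 210 in siControl at 1 probe set. At another it was at least 2.21-fold lower, with the siCPEB1 signal set at the array median. *Tdrd3* was at least 2.89-fold lower by the same bound. At the probe set that stood for the gene, *Pura* and *Tdrd3* had log2 ratios of -0.49 and -0.22. The remaining *Pura* probe sets had log2 ratios of -0.18 and 0.072.

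Of 9 counted box C/D assembly genes, listed as partners of NUFIP1, 3 lay above 0 and 6 below (median -0.20, or 0.12 with *Hprt* scaling). The nucleolar methyltransferase fibrillarin, *Fbl*, had a log2 ratio of -0.27, *Nop58* of -0.20, *Nop56* of 0.12 and the ATPase *Ruvbl2* of -0.46. Of the 14 counted probe sets of this list, 1 was lower by more than 2-fold and 0 higher, against 4.04% and 4.49% on the array. That single call says nothing of the list. It was a *Pih1d1* probe set that can cross-hybridize (139 in siCPEB1 and 282 in siControl). The probe set that stood for *Pih1d1*, an assembly factor, had 277 in siCPEB1 and 473 in siControl (log2 ratio -0.77, the lowest of the list). Another was at least 1.57-fold lower, with its siCPEB1 signal (19.4) set at the array median. The last *Pih1d1* probe set, which can also cross-hybridize, had a log2 ratio of -0.37. Of 14 mRNAs known as FMRP targets in brain, 9 passed the filter, 4 above 0 and 5 below (median -0.046, but 0.27 with *Hprt* scaling and 0.069 over all 14 with no filter). *Map1b*, which encodes a microtubule-associated protein, had 2614 in siCPEB1 and 2486 in siControl, and *App*, the amyloid precursor protein gene, had 2739 in siCPEB1 and 3096 in siControl. *Sod1*, superoxide dismutase, had 4627 in siCPEB1 and 4999 in siControl, and *Ppp2ca*, a phosphatase catalytic subunit, had 4081 in siCPEB1 and 3564 in siControl. These log2 ratios ran from -0.18 to 0.20. Of the 19 counted probe sets of the targets, 1 was higher by more than 2-fold and 0 lower, against 4.49% and 4.04% on the array. The 1 call was a dim *Ppp2ca* probe set (44.2 in siCPEB1 and 21.6 in siControl).

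**Figure D4:**
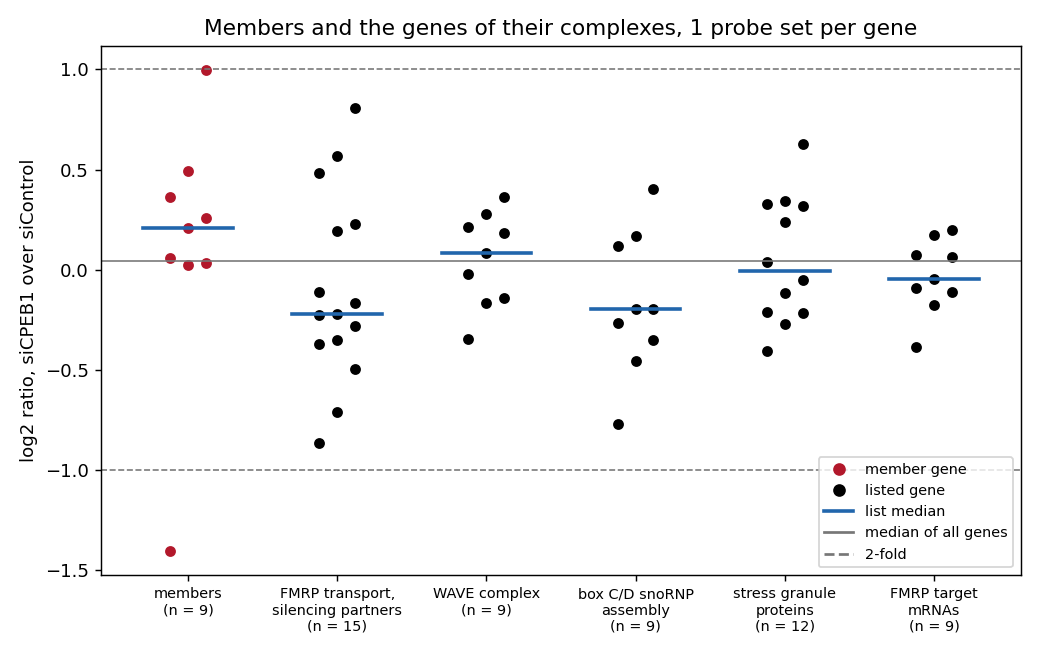
Log2 ratio of siCPEB1 over siControl (y axis) for the members (red) and the genes of the 5 lists (black), 1 probe set per gene, with blue bars at list medians, a grey line at the median of all genes (0.045) and dashed lines at 2-fold. *Cyfip2*, at -1.40, is the only point outside the dashed lines.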

How the data were processed

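Total RNA of siCPEB1- and siControl-transfected Neuro2a cells was hybridized to 1 Affymetrix Mouse Genome 430 2.0 array each. Per the labels, the authors computed the deposited intensity values with MAS5 in Affymetrix Expression Console (version not given in the sources used here), a method that takes off background and brings every array to a common level. The table holds 45101 probe sets, of which 64 are controls and were left out of counts. It carries no detection flags.

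Log2 ratios were taken from the signals as deposited, with no added scaling. Symbols came from the platform annotation, updated to RefSeq names of GRCm38.p6, and 34945 probe sets had 1 symbol, 932 several and 9160 none listed. Where 1 probe set stood for a gene, _x_at and _s_at probe sets were avoided and the one with the highest mean log2 signal was used (by arithmetic mean signal, Cyfip2 alone among members would change, to -1.60). Named were all members, Cpeb1, and up to 4 genes of each list, those past 2-fold first and then the brightest. Outside that rule, Usp10, Kif5a, Kif3c and Stau2 were named after their values were seen. So were Stau1, Pura, Tdrd3, Ubap2l and Pih1d1, for probe sets past 2-fold that did not stand for the gene. For the spread, counted probe sets were divided into 10 bins of mean signal. Members and lists were chosen with earlier results of these data known. The alternatives were 4 other scalings, 16 added to both signals, 3 other filters, leaving out cross-hybridizing probe sets, the mean of a gene's probe sets, a 1.5-fold threshold and, added later, scaling to Hprt and the choice by arithmetic mean. Simulated arrays with known ratios were used to check the steps. With 1 array in each condition, precision is limited by their number. Python 3.11.15, numpy 2.4.6, pandas 2.3.3, statsmodels 0.14.6 and matplotlib 3.10.9 were used.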

Additional observations from a re-analysis of the deposited data

How the results depend on the processing

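With each array scaled to Hprt, 3 member probe sets, of Caprin2, Fxr1 and G3bp2, were higher by more than 2-fold, against 9.92% of all counted probe sets. Every log2 ratio moves up by the same amount under this scaling, so that the member medians were 0.58 over probe sets and 0.52 over genes. With a 1.5-fold threshold, 3 of the 23 counted member probe sets were higher and 2 lower, against 12.9% and 12.1% of all counted probe sets. With the 75th percentile required in both arrays, 0 were lower, against 1.99% of all probe sets that passed. The 2 Cyfip2 probe sets called lower dropped out through their siCPEB1 signals (72.9 and 67.9, against a 75th percentile of 159). Their siControl signals (193 and 206) were above the siControl 75th percentile of 154. Under the other treatments of the signals and filters the count of lower member probe sets was within 1.5 times 2, and no member probe set was higher. Of 144 values of single member probe sets under other scalings, 143 moved by less than the pooled SD of 0.37, and the exception was the dim Cyfip2 probe set with 16 added (-0.84). Scaling to Hprt shifts all probe sets by 0.31, and scaling to the median or the 75th percentile by less. Values under these scalings could therefore not move past 0.37, and the count says little about them. No paired analysis was possible because each condition has 1 array, and for the same reason no array could be left out.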

Other observations

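The 4 kinesins and both Staufen genes of the transport list were looked at probe set by probe set after their values were seen. Stau1 had signals of 471, 396 and 188 in siCPEB1, against 269, 223 and 83.9 in siControl, log2 ratios of 0.81, 0.83 and 1.16. Its paralog Stau2 had 273, 223 and 28.9 in siCPEB1, against 306, 275 and 27.1 in siControl, log2 ratios of -0.17, -0.30 and 0.093. Kif5b, the ubiquitous kinesin heavy chain, had log2 ratios from -0.73 to -0.37 at its 5 counted probe sets (1006 in siCPEB1 and 1300 in siControl at the probe set that stood for the gene), and Kif5a, a neuronal heavy chain, had -0.86 and -0.41. Kif3c, of another kinesin family, had -0.71 and -0.38. Kif5c, the other neuronal heavy chain, had 0.48, 0.36 and 0.083 (1606 in siCPEB1 and 1151 in siControl at the first). Scaling to Hprt adds 0.31 to each of these log2 ratios, which puts both lower Stau2 probe sets above 0. All of them are ratios between 2 single arrays.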
